A study of Mus musculus with 8 samples.

Results

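The 10 genes described here carry the recovery of the photoresponse and its calcium feedback: the retinal guanylate cyclases *Gucy2e* and *Gucy2f*, their calcium-sensing activators *Guca1a* and *Guca1b*, *Rcvrn* (recoverin), *Grk1* (rhodopsin kinase), the *Rgs9*, *Gnb5* and *Rgs9bp* complex and the exchanger *Slc24a1*. They were chosen by function, with earlier results of these data known. The count files held 31053 gene identifiers, of which 12889 had enough counts to be tested. All 10 were among the genes tested. The data were 8 libraries of RNA from retinal pigment epithelium (RPE) isolated from C57/Bl6 mice at postnatal day 29 (P29), 4 from wild-type animals (*Bbs8*+/+) and 4 from littermates with a germline knockout of *Bbs8* (*Bbs8*-/-), and no animal was treated. *Bbs8*, listed as *Ttc8*, encodes a subunit of the BBSome, a complex that carries membrane proteins in and out of cilia. The knockout is not restricted to the RPE, so the photoreceptors of these animals lacked *Bbs8* as well. The labels give the sex as not determined.

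In a rod, light closes cGMP-gated channels, and the fall in intracellular calcium that follows drives the return to darkness. Recovery ends the response at each of its stages: the opsin is phosphorylated by *Grk1* and capped by arrestin, transducin is shut off by the RGS9 complex, and cGMP is made again by the guanylate cyclases once their calcium-free activators switch them on. *Slc24a1*, the rod exchanger of sodium for calcium and potassium, removes the calcium. These genes are known as photoreceptor genes and not as genes of the RPE, whose cells lie against the outer segments and take up their shed tips. In RNA from isolated tissue, fewer photoreceptor remnants in a sample and less of each RNA per remnant cannot be told apart.

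Counts on genes ranged from 2495094 to 3093428 in the *Bbs8*+/+ libraries and from 2389835 to 2736289 in the *Bbs8*-/- libraries, so that 3 counts, the floor taken here, stood at 1.02 to 1.23 CPM (counts relative to library size, which was scaled by TMM). *Ttc8* fell from 47.6 ± 10.3 to 4.70 ± 1.97 CPM (SD, n = 4), which fits the labels. The RPE markers *Rpe65*, *Rgr* and *Ttr* were abundant in all libraries, whereas *Best1*, another RPE gene, had 0 to 5 counts. *Xist* stood at 41.3 to 71.1 CPM in *Bbs8*+/+ and at 200 to 212 CPM in *Bbs8*-/-, and the Y-linked *Ddx3y* was present in every library at 66.7 to 108 CPM. With both present in each library, the counts do not settle whether a library came from 1 animal, and n counts libraries. The SDs, SEs and p-values therefore describe spread between libraries, which may not be spread between animals. *Xist* differed by genotype, and the part of sex in the values of the 10 genes was not tested. Replicate 1 of *Bbs8*+/+ stood apart, with a chi-square per gene of 6.07 to 7.51 against the other *Bbs8*+/+ libraries, compared with 2.87 to 3.41 among these. It was the highest *Bbs8*+/+ library for 5 of the 10 genes and the lowest for 3. Without it, all 10 genes were still called lower by edgeR's quasi-likelihood test, with log2 fold changes from -1.32 to -0.43.

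The promoters show which sequence features some of these genes share. RefSeq promoter sequence (GRCm38.p6) was at hand for 7 of the 10 genes, and *Guca1b*, *Rcvrn* and *Rgs9bp* were not matched. The last 150 bases before the transcription start are printed 5′ to 3′ for 5 genes, with capitals marking TAATCC or its reverse complement GGATTA, the core bound by the photoreceptor factor CRX. *Guca1a*, *Gucy2e*, *Gucy2f* and *Gnb5* are shown because they hold it, and *Rgs9* because it had the smallest change of the 10.
*Guca1a* (chr17:47400607-47400756, minus strand): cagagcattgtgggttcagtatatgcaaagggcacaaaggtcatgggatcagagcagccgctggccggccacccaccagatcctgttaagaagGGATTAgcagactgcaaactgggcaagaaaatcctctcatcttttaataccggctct
*Gucy2e* (chr11:69237023-69237172, minus strand): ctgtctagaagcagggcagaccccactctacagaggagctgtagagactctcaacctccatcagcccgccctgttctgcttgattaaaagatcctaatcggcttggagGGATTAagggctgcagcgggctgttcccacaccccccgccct
*Gucy2f* (chrX:142196937-142197086, minus strand): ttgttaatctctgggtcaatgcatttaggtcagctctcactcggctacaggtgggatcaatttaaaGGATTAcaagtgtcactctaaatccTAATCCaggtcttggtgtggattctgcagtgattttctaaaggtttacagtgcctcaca
*Gnb5* (chr9:75306138-75306287, plus strand): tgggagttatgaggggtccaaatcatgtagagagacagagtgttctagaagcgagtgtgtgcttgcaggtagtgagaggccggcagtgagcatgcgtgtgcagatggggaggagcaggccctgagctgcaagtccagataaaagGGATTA
*Rgs9* (chr11:109298182-109298331, minus strand): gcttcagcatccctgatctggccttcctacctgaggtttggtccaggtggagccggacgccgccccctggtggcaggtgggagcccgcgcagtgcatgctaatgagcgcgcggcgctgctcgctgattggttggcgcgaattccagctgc

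The first base of the motif lay 57 bases before the start in *Guca1a*, 42 in *Gucy2e* and 6 in *Gnb5*, and *Gucy2f* held a match on each strand, 84 and 59 bases before the start. Over the 250 bases before the start, 4 of the 7 promoters (57.1%) held the motif on either strand, compared with 2054 of all 32851 promoters in the table (6.25%). Of the matched promoters of rod activation genes 3 of 4 (75%) held it, and of those of cone genes 1 of 7 (14.3%). Of those of photoreceptor structure genes, most of which also fell, 2 of 13 (15.4%) held it. These are shares of promoters and not of genes, since the 13 belong to a list of 12 genes. The *Grk1*, *Rgs9* and *Slc24a1* promoters held none in this window. TGCTGA or TCAGCA, a core of the sites bound by the rod factor NRL, was found in 1 of the 7, in *Rgs9* 147 bases before the start, compared with 16.1% of all promoters. The searched motifs do not overlap in these promoters, and a match describes the letters and not a bound site.

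All 10 genes fell in *Bbs8*-/- RPE, and none rose. Over all genes tested, 877 (6.80%) were called lower and 704 (5.46%) higher by the same test, edgeR's quasi-likelihood F test at an adjusted p of 0.05. Scaling by library size alone gave 657 lower and 1005 higher genes, with the same calls for the 10. The median log2 fold change of the 10 genes was -1.09, compared with 0.02 over all genes tested, and the range was -1.30 to -0.48. For 9 of the 10 genes the genotypes did not overlap, all *Bbs8*-/- libraries being the lower ones, a separation found in 1111 (8.62%) of all genes tested, and *Gucy2f* was the exception. Together the 10 genes took 0.694% to 0.757% of the counts in the *Bbs8*+/+ libraries and 0.377% to 0.390% in the *Bbs8*-/- libraries. All 10 calls held with DESeq2, with scaling by library size alone and with each library left out.

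**Figure D1:**
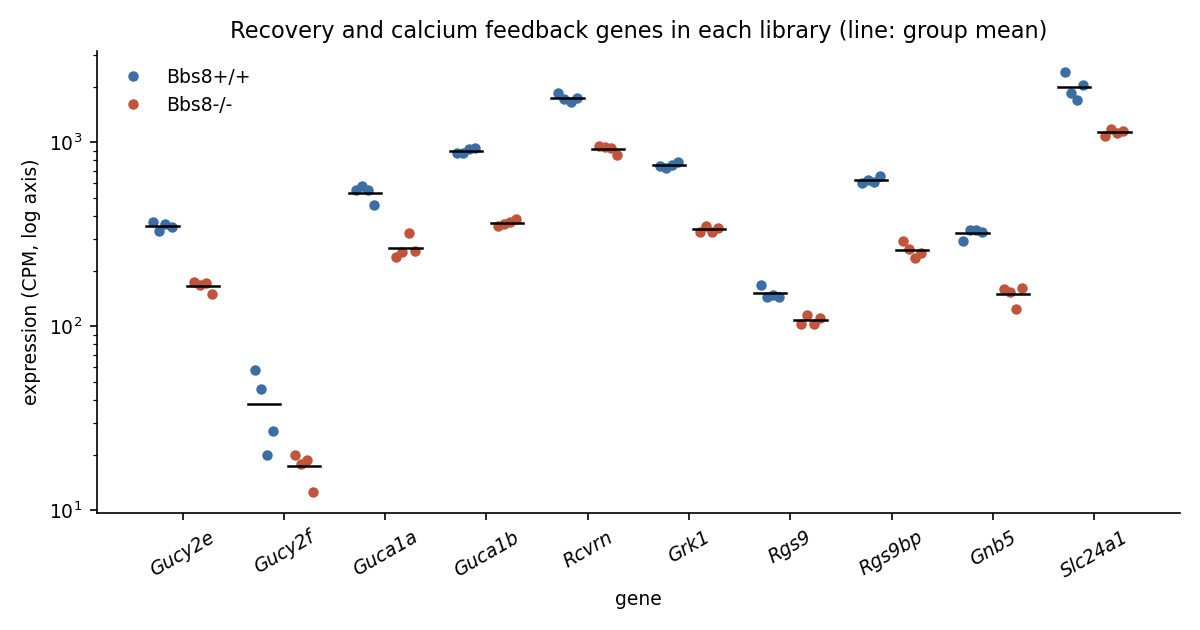
Expression in CPM on a log axis of the 10 recovery and calcium feedback genes in each of the 4 *Bbs8*+/+ (blue) and 4 *Bbs8*-/- (red) libraries, with lines at the group means. The *Bbs8*-/- libraries lie below all *Bbs8*+/+ libraries except for *Gucy2f*, where the lowest *Bbs8*+/+ library, at 20.03 CPM, lies among them.

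The guanylate cyclases make the cGMP that reopens the channels. *Gucy2e* (chr11:69218117-69237036, minus strand) stood at 369, 329, 358 and 348 CPM in *Bbs8*+/+ replicates 1 to 4 and at 175, 167, 173 and 151 CPM in *Bbs8*-/-. The groups were far apart, and the least expressed *Bbs8*+/+ library was above the highest *Bbs8*-/- library by far more than the spread within either. The log2 fold change was -1.08 (SE 0.0938, edgeR adjusted p = 1.94e-11), which left 47.4% of the *Bbs8*+/+ level. *Gucy2f* (chrX:142081160-142196931, minus strand), the X-linked second cyclase, was much more scattered, with 57.9, 45.5, 20.03 and 27.1 CPM in *Bbs8*+/+ and 20.1, 17.9, 18.8 and 12.6 CPM in *Bbs8*-/-. *Bbs8*+/+ replicates 1 and 2 were high, while replicate 3 fell among the *Bbs8*-/- libraries. These values rest on 49 to 171 and on 36 to 50 counts per library, and the coefficient of variation in *Bbs8*+/+ was 45.8% against 9.82% from counting alone. The log2 fold change was -1.13 (SE 0.267, edgeR adjusted p = 0.00280) and became -0.84 (adjusted p = 0.0315) without *Bbs8*+/+ replicate 1. *Xist* also differed between the genotypes, and the part of sex in the *Gucy2f* values was not tested.

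*Guca1a* and *Guca1b* encode the guanylate cyclase activating proteins, which hold the cyclases back when they bind calcium and drive them when they are free of it. The genes lie tail to tail on chromosome 17, *Guca1b* at chr17:47385393-47392967 on the plus strand and *Guca1a* at chr17:47394558-47400584 on the minus strand, with 1590 bases between their ends. *Guca1b* was even across replicates, at 873, 881, 925 and 931 CPM in *Bbs8*+/+ and 350, 362, 368 and 382 CPM in *Bbs8*-/-. It had the largest fall of the 10 genes, with a log2 fold change of -1.30 (SE 0.0752, edgeR adjusted p = 1.57e-16), and 40.5% of its *Bbs8*+/+ level remained. *Guca1a* stood at 548, 578, 554 and 454 CPM in *Bbs8*+/+ and at 238, 254, 321 and 258 CPM in *Bbs8*-/-. Here *Bbs8*+/+ replicate 4 was low and *Bbs8*-/- replicate 3 was high within their groups, which still did not overlap. The log2 fold change was -0.996 (SE 0.0949, edgeR adjusted p = 1.90e-10).

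Recoverin is the calcium sensor that holds rhodopsin kinase back in the dark, and *Grk1* is that kinase, which phosphorylates the light-activated opsin of rods and, in mice, of cones. *Rcvrn* (chr11:67695326-67703333, plus strand) stood at 1858, 1718, 1664 and 1748 CPM in *Bbs8*+/+ and at 951, 941, 928 and 859 CPM in *Bbs8*-/-. *Grk1* (chr8:13405081-13421951, plus strand) stood at 742, 727, 757 and 785 CPM in *Bbs8*+/+ and at 327, 351, 324 and 343 CPM in *Bbs8*-/-. Both genes separated the genotypes with wide gaps and little scatter, the coefficient of variation being under 5% in each group. *Rcvrn* fell by 0.93 on the log2 scale (SE 0.0648, edgeR adjusted p = 4.57e-14) and *Grk1* by 1.16 (SE 0.0774, adjusted p = 1.11e-14). *Rcvrn* lies within the span of *Glp2r*, on the opposite strand, shares no exon with it, and *Glp2r* had 0 counts in every library.

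The RGS9 complex speeds the hydrolysis of GTP by transducin and so sets how fast a rod recovers. Its catalytic subunit is RGS9, GNB5 is the obligate G protein beta subunit bound to it, and RGS9BP anchors both to the disc membrane. *Rgs9bp* (chr7:35578993-35585582, minus strand) stood at 600, 626, 613 and 659 CPM in *Bbs8*+/+ and at 293, 262, 236 and 251 CPM in *Bbs8*-/-. *Gnb5* (chr9:75306288-75345876, plus strand) stood at 290, 336, 336 and 326 CPM in *Bbs8*+/+ and at 159, 153, 124 and 162 CPM in *Bbs8*-/-. The log2 fold changes of these partners were -1.26 (SE 0.0848, edgeR adjusted p = 1.45e-14) and -1.11 (SE 0.101, adjusted p = 6.86e-11). *Rgs9* itself (chr11:109225355-109298129, minus strand) stood at 167, 144, 148 and 145 CPM in *Bbs8*+/+ and at 103, 115, 102 and 111 CPM in *Bbs8*-/-. The groups did not overlap, but the gap was narrow, and *Bbs8*+/+ replicate 1 lay above the other *Bbs8*+/+ libraries. *Rgs9* had the smallest fall of the 10 genes, with a log2 fold change of -0.48 (SE 0.114, edgeR adjusted p = 0.00269), and kept 71.7% of its *Bbs8*+/+ level. The annotation gives *Rgs9* 4 protein-coding transcripts with 4 different 3′ ends, which counts per gene do not separate. *Gnb5* shares 248 exon bases with the antisense gene *Gm19531*, which had 0 to 17 counts per library, and the strand setting of the counting is not given in the sources used here.

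*Slc24a1* (chr9:64922861-64951607, minus strand) clears calcium from the rod outer segment. It stood at 2421, 1851, 1705 and 2055 CPM in *Bbs8*+/+ and at 1084, 1179, 1120 and 1151 CPM in *Bbs8*-/-. The *Bbs8*-/- libraries were close together and the *Bbs8*+/+ libraries, with replicate 1 the highest, were more scattered, with a coefficient of variation of 15.5% against 1.35% from counting. The log2 fold change was -0.82 (SE 0.0756, edgeR adjusted p = 6.98e-11), and -0.72 without *Bbs8*+/+ replicate 1.

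Within the RGS9 complex, the RNA of *Rgs9* fell less than that of *Rgs9bp* and *Gnb5*, which were not set against each other. Ratios were formed within each library between genes that act together, 5 pairs in all, and the change of a ratio was tested, not its level, since counts of different genes are not on a scale per length. The log2 ratio of *Rgs9* to *Rgs9bp* was -1.84, -2.11, -2.05 and -2.18 in *Bbs8*+/+ and -1.496, -1.18, -1.20 and -1.17 in *Bbs8*-/-. Every *Bbs8*-/- library was above every *Bbs8*+/+ library, and the ratio was 1.72-fold higher in *Bbs8*-/- (exact permutation test, two-sided, p = 0.0286, 0.0476 after Benjamini-Hochberg adjustment over the 5 pairs, n = 4). *Rgs9* to *Gnb5* was likewise 1.55-fold higher without overlap, with the same exact p and adjusted p. The value 0.0286 is the smallest p that 4 libraries against 4 can give. The adjusted p depends on how many of the 5 pairs reach that value. Both ratios use the same *Rgs9* values, so they are not separate results.

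*Guca1a* and *Guca1b* also moved by different amounts. The log2 ratio of *Guca1a* to *Guca1b* was -0.67, -0.61, -0.74 and -1.03 in *Bbs8*+/+ and -0.55, -0.51, -0.20 and -0.57 in *Bbs8*-/-. The groups were close but did not overlap, with a difference of 0.31 (exact permutation test, two-sided, p = 0.0286, adjusted p = 0.0476, n = 4). The ratio of *Rcvrn* to its target kinase *Grk1* differed by 0.24 on the log2 scale, with overlap and an exact p of 0.0571 (adjusted p = 0.0714), and that of *Gucy2e* to *Gucy2f* by -0.08 (exact p = 0.8286, the same after adjustment). With a library left out, 3 libraries stood against 4, and only the size of the difference is given here. The difference then ranged from 0.74 to 0.86 for *Rgs9* to *Rgs9bp*, from 0.57 to 0.73 for *Rgs9* to *Gnb5* and from 0.22 to 0.36 for *Guca1a* to *Guca1b*.

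**Figure D2:**
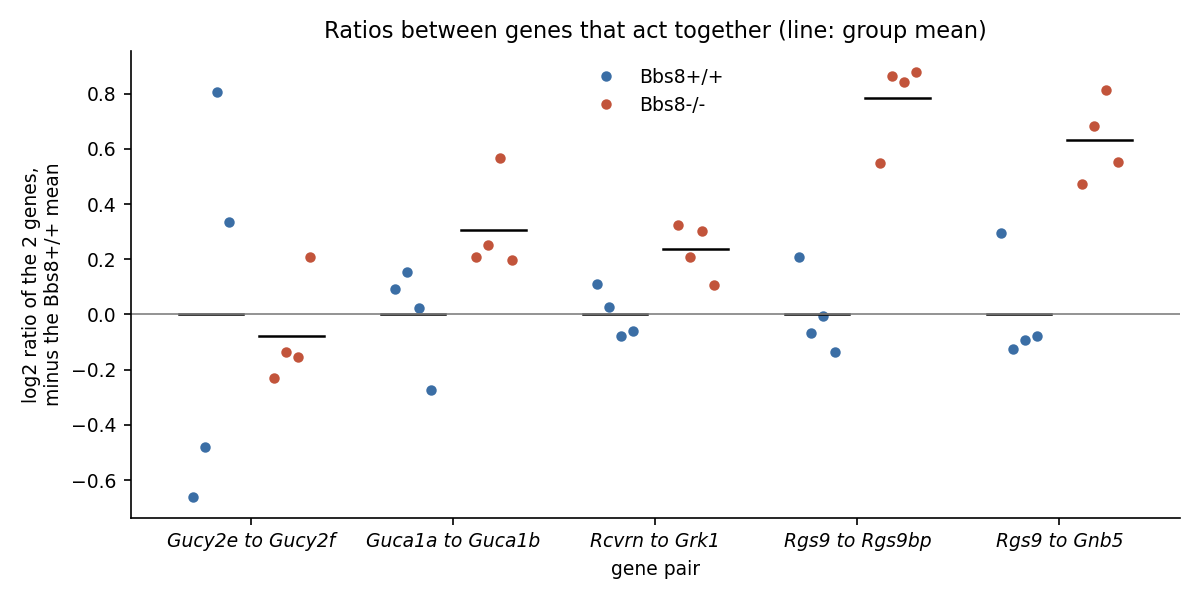
Log2 ratio of the 2 genes of each pair in each library, with the *Bbs8*+/+ mean of the pair set to 0, for 4 *Bbs8*+/+ (blue) and 4 *Bbs8*-/- (red) libraries and lines at the group means. Both ratios with *Rgs9* lie higher in all *Bbs8*-/- libraries, by 0.78 and 0.63 on average, while the *Gucy2e* to *Gucy2f* ratio overlaps.

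The activation arm of the rod cascade, which these genes switch off, fell at the same time. Of 8 rod activation genes, 7 fell, among them the transducin alpha subunit *Gnat1* (log2 fold change -1.47), the phosphodiesterase subunits *Pde6b* (-1.43), *Pde6g* (-1.39) and *Pde6a* (-1.33), and the channel subunits *Cngb1* (-1.39) and *Cnga1* (-1.05). The transducin gamma subunit *Gngt1* did not pass (log2 fold change -0.14, edgeR adjusted p = 0.609), with 433 CPM in *Bbs8*+/+ replicate 1 against 919 to 1155 CPM in the other *Bbs8*+/+ libraries. Without replicate 1, 8 of the 8 genes were called lower, *Gngt1* included. The median of the 8 was -1.39, compared with -1.09 for the recovery genes.

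Each recovery gene was therefore set against the mean log2 level of the 8 rod activation genes in the same library. No gene passed after adjustment over the 10 tests. *Rgs9* had the largest change relative to the reference, with a log2 ratio of -3.93, -4.24, -4.24 and -4.29 in *Bbs8*+/+ and of -3.56, -3.28, -3.51 and -3.38 in *Bbs8*-/-. The groups did not overlap, and the difference was 0.74 (exact permutation test, two-sided, p = 0.0286, adjusted p = 0.143, n = 4). *Rcvrn* differed by 0.30, also without overlap and with the same exact p and adjusted p. *Slc24a1* differed by 0.41 (exact p = 0.0571, adjusted p = 0.190). The other differences were 0.22 for *Guca1a* and *Gucy2f*, 0.15 for *Gucy2e*, 0.11 for *Gnb5*, 0.06 for *Grk1*, -0.04 for *Rgs9bp* and -0.08 for *Guca1b*, with exact p from 0.0857 to 0.600. These results depended on the reference. Without *Gngt1*, a choice made after its values were seen, *Rgs9* (0.91), *Slc24a1* (0.57), *Rcvrn* (0.46), *Guca1a* (0.39), *Gucy2e* (0.31) and *Grk1* (0.23) passed with an adjusted p of 0.0476. With 12 photoreceptor structure genes as the reference none of the 10 passed: the ratio changed by 0.48 for *Rgs9*, -0.34 for *Guca1b* and -0.20 for *Grk1* (adjusted p = 0.0952 for each, exact permutation test) and by -0.30 for *Rgs9bp* (adjusted p = 0.143). There the changes of *Guca1a*, *Gucy2e*, *Gucy2f*, *Grk1* and *Gnb5* turned from above 0 to below 0.

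**Figure D3:**
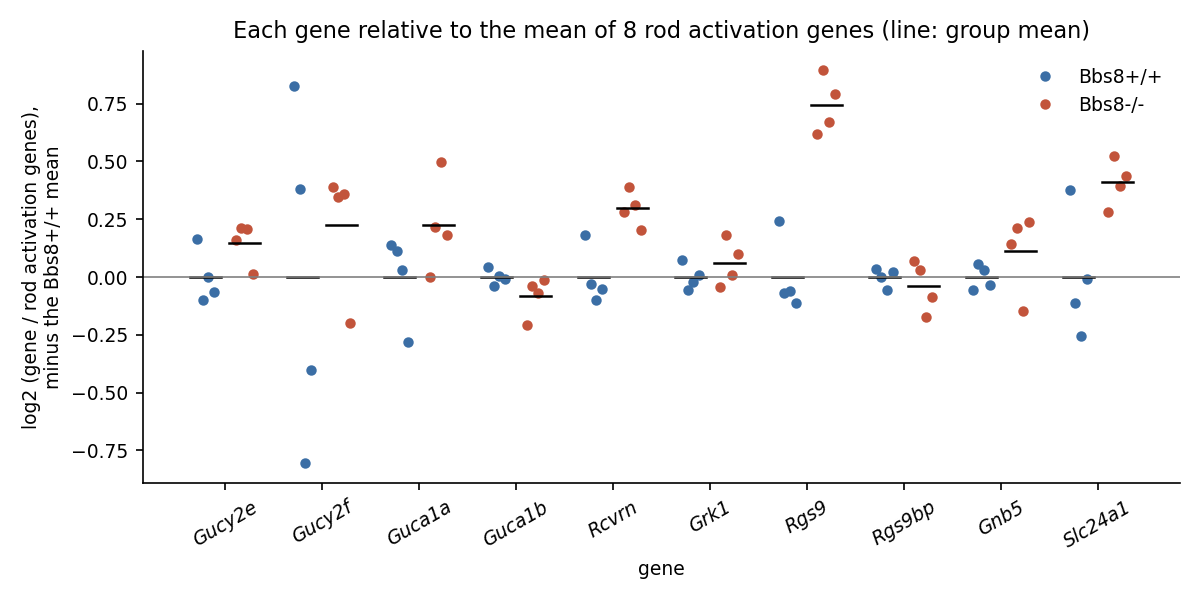
Log2 ratio of each gene to the mean of the 8 rod activation genes in each library, with the *Bbs8*+/+ mean set to 0, for 4 *Bbs8*+/+ (blue) and 4 *Bbs8*-/- (red) libraries and lines at the group means. *Rgs9* has the largest shift, 0.74, and *Gucy2f* the widest spread in *Bbs8*+/+.

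Cone genes went the other way. Of 10 cone genes tested, 6 rose and none fell, with a median log2 fold change of 0.80. With a library left out, 4 to 6 were called higher. The cone transducin beta subunit *Gnb3* rose from 36.0 ± 6.58 to 225 ± 14.4 CPM (log2 fold change 2.65, edgeR adjusted p = 2.05e-18, n = 4) and the cone phosphodiesterase inhibitor *Pde6h* by 1.21 on the log2 scale (adjusted p = 0.00115), while the cone arrestin *Arr3* did not pass (-0.13, adjusted p = 0.808). *Slc24a2*, a relative of *Slc24a1* described in cones, was near the floor, with 1.14 ± 0.497 CPM in *Bbs8*+/+ and 2.43 ± 3.54 CPM in *Bbs8*-/-. Several of the 10 recovery genes are known to serve cones as well as rods, among them *Grk1*, *Rgs9*, *Guca1a* and *Gucy2e*. Cone genes took 0.0201% to 0.0260% of the counts in *Bbs8*+/+ and 0.0513% to 0.0597% in *Bbs8*-/-. *Gnb3* made the largest part of this rise, with 76 to 122 counts per *Bbs8*+/+ library and 499 to 658 per *Bbs8*-/- library. The part of cones in the values of the shared genes was not tested.

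**Figure D4:**
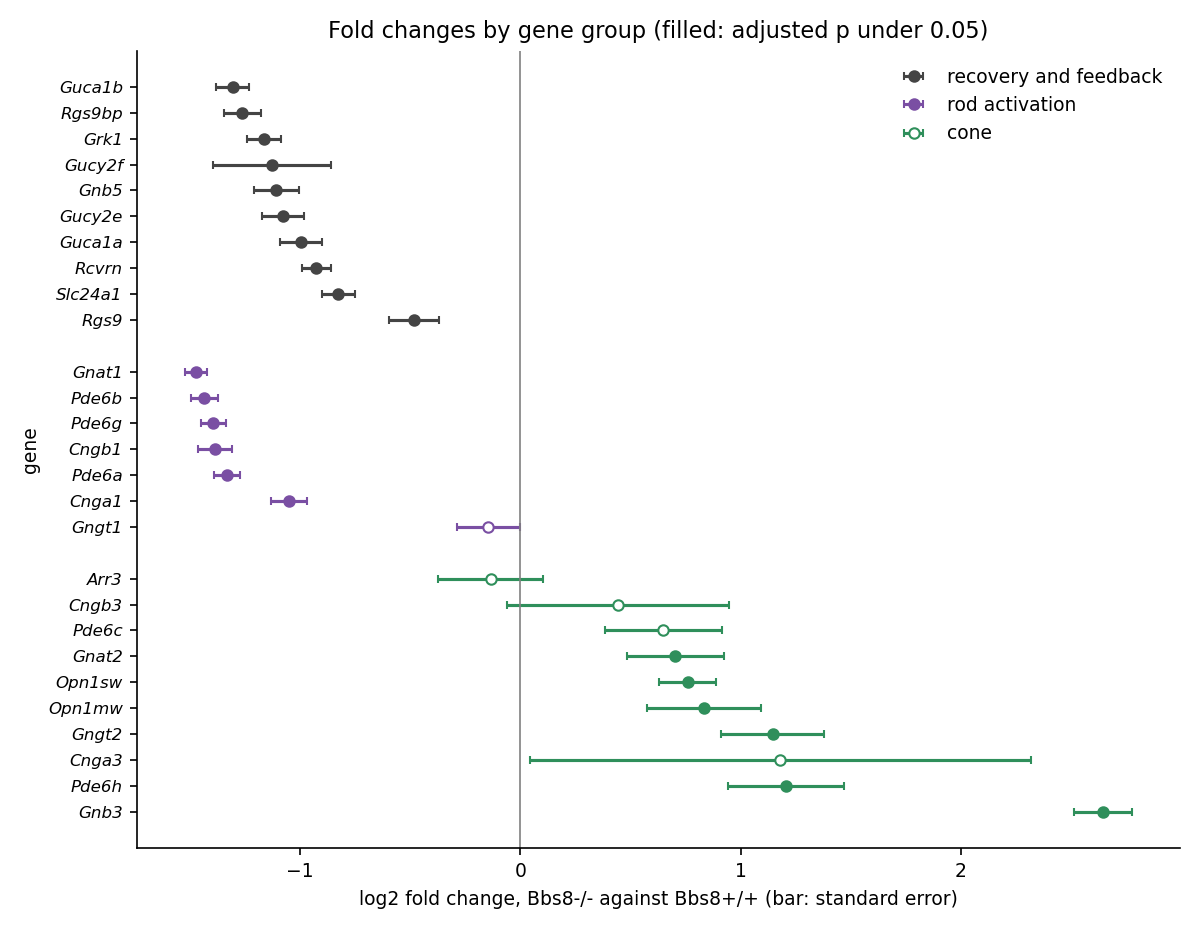
Log2 fold change of *Bbs8*-/- against *Bbs8*+/+ with its standard error for the 10 recovery and feedback genes, 7 of the 8 rod activation genes and 10 cone genes, where filled points passed an edgeR adjusted p of 0.05. The recovery genes lie from -1.30 to -0.48, between most rod activation genes and the cone genes.

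Partners of the recovery machinery fell in part. Of 14 genes for cyclase trafficking, calmodulin, calcium pumps, synaptic calcium channels and other ion channels, 9 fell and 1 rose, with a median log2 fold change of -0.73. *Rd3*, which carries the retinal cyclases out of the inner segment, fell from 167 ± 11.2 to 100 ± 6.05 CPM (log2 fold change -0.74, edgeR adjusted p = 5.48e-06, n = 4). The potassium channel subunit *Kcnv2* had the largest fall, with a log2 fold change of -1.21, and *Cacna2d4* (-0.98), a synaptic calcium channel subunit, and *Cabp4* (-1.02), which modulates that channel, also fell. *Calm2*, a gene for calmodulin, rose by 0.27 (adjusted p = 0.0306), a call lost without *Bbs8*+/+ replicate 2 or *Bbs8*-/- replicate 1, 2 or 4.

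The other relatives of these genes, listed by family, gave few calls. None of the 5 other G protein-coupled receptor kinases tested passed, the median log2 fold change being 0.21 and the values running from -0.12 (*Grk6*) to 0.27 (*Grk5*). Among 4 genes of the RGS7 family and its anchor that were tested, *Rgs7bp* fell from 26.8 ± 3.46 to 15.9 ± 3.40 CPM (edgeR adjusted p = 0.0450, n = 4), a call lost without *Bbs8*+/+ replicate 2, 3 or 4 or *Bbs8*-/- replicate 1, 2 or 3, and the median of the 4 was 0.01. Of 5 recoverin-like calcium sensors, *Hpcal1* fell (log2 fold change -0.86, adjusted p = 0.00205) and *Ncald*, *Hpca*, *Hpcal4* and *Ncs1* did not pass, with log2 fold changes from 0.42 to 1.24 and a median of 0.64 for the 5. Of 5 other membrane cyclases, 2 were tested (median -0.09). These natriuretic peptide receptor cyclases, *Npr1* (-0.55, edgeR adjusted p = 0.0543) and *Npr2* (0.37, adjusted p = 0.125), did not pass, although *Npr1* and *Npr2* passed without *Bbs8*+/+ replicate 1, and *Npr1* without *Bbs8*-/- replicate 4. Of 4 other exchangers, 2 were tested (median 0.59), and the pigment cell exchanger *Slc24a5* rose by 0.29 on the log2 scale (adjusted p = 0.0279), a call lost without *Bbs8*+/+ replicate 3 or 4 or *Bbs8*-/- replicate 1, 2 or 4, in contrast to *Slc24a1*.

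Markers of other cells changed along with the recovery genes. Among photoreceptor structure genes, 10 of 12 fell, with a median of -0.99, and their share of counts went from 1.08% to 1.13% in *Bbs8*+/+ to 0.528% to 0.558% in *Bbs8*-/-. All 7 other rod genes fell, with a median of -1.27, from *Reep6* (-1.83) and *Nrl* (-1.58) to *Nr2e3* (-0.93) and *Sag* (-0.77). All 12 lens genes fell, with a median of -2.72, and took 0.285% to 0.300% of counts in *Bbs8*+/+ and 0.0400% to 0.0458% in *Bbs8*-/-. Of 6 erythrocyte genes, 5 fell, with a median of -1.37, and their share went from 0.505% to 0.546% down to 0.208% to 0.226%. RPE markers gave 3 lower and 2 higher calls of 10, with a median of -0.08 and a share of 3.44% to 3.57% in *Bbs8*+/+ and 4.47% to 4.81% in *Bbs8*-/-. The higher share rested on *Ttr*, left out after its values were seen: the other 9 RPE markers took 1.39% to 1.51% of counts in *Bbs8*+/+ and 1.40% to 1.45% in *Bbs8*-/-, and *Rpe65*, *Rdh5* and *Pmel* were the 3 called lower. Bipolar and amacrine markers gave 1 lower and 1 higher call of 10 (median -0.14), and Müller glia markers 2 higher calls of 7 (median 0.82). Of these 2 calls, that of *Gfap* rested on 0 to 23 counts per library. *Rlbp1*, which stands in both the RPE and the Müller glia lists, did not pass (0.04, edgeR adjusted p = 0.771). What these shifts in other markers contribute to the fall of the recovery genes was not tested.

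**Figure D5:**
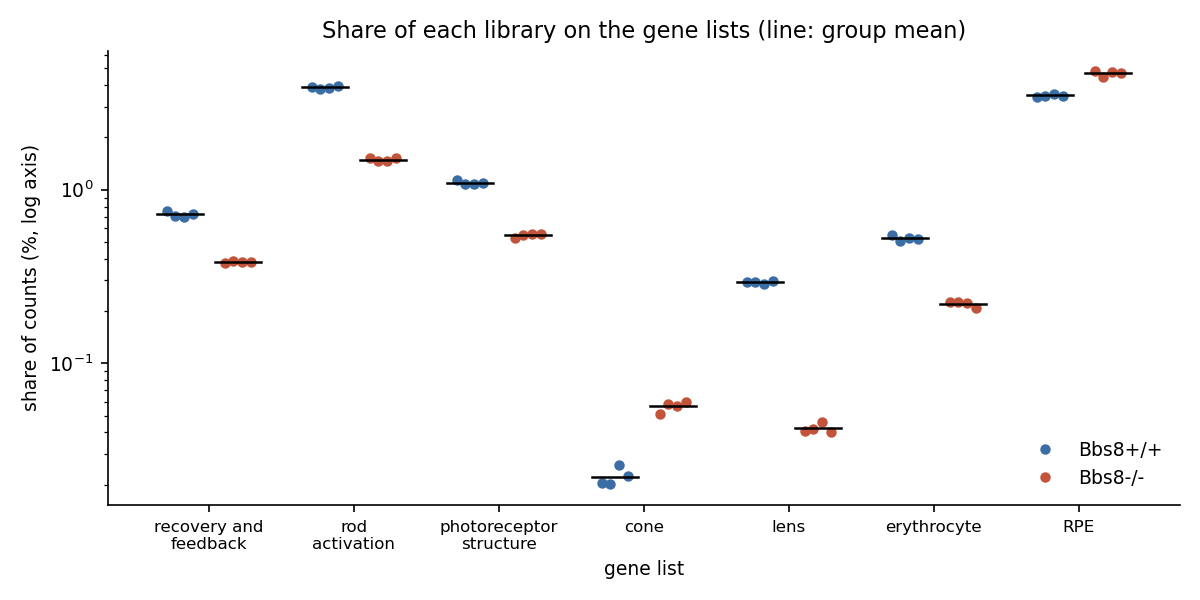
Share of all counts (percent, log axis) on the recovery genes and on 6 other gene lists in each of the 4 *Bbs8*+/+ (blue) and 4 *Bbs8*-/- (red) libraries, with lines at the group means. Recovery, rod activation, structure, lens and erythrocyte shares are lower in all *Bbs8*-/- libraries, and cone and RPE shares are higher, the RPE share through *Ttr* alone, since the other 9 RPE markers overlap at 1.39% to 1.51% and 1.40% to 1.45%.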

How the data were processed

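RNA of isolated RPE was sequenced with QuantSeq 3′ libraries, which read transcript ends. After trimming, the authors used STAR to align the reads (mm10) and htseq-count to count unique alignments on each Ensembl gene, and these raw counts were deposited. Reads that did not map uniquely made up 32.8% to 34.5% per library. Groups came from the labels, and the study states that each animal was a replicate, which the counts do not settle. The software was R 4.3.3, edgeR 4.0.16 and, as an alternative, DESeq2 1.42.0. A gene was tested if 4 or more of the 8 libraries reached 1 CPM. The two-sided quasi-likelihood F test of edgeR was run with TMM scaling, and p was adjusted by Benjamini-Hochberg over all genes tested. The SE of a log2 fold change was derived from this test, as its absolute value divided by the square root of F. The fit was tested on simulated data. Ratios used log2(CPM + 0.5) and exact permutation tests. Coordinates are GRCm38 (GENCODE M21), and 30934 of 31053 identifiers had a symbol. The genes and lists were chosen with earlier results of these data known. Named are the 10 genes, *Ttc8*, the rod activation genes and, from each list, genes among the lowest and highest 2 by fold change. Genes named beyond this (*Best1*, *Rpe65*, *Rgr*, *Xist*, *Ddx3y*, *Rd3*, *Cabp4*, *Cacna2d4* and *Ncs1*) were chosen after their values were seen. Some listed genes are not reported here. Floors and counting errors cover counting only.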

Additional observations from a re-analysis of the deposited data

Results flagged for a closer look

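In 68 groups of 4 libraries, the highest or lowest library was compared with the rest, and about 1 group in 20 is picked out by chance. For *Rgs9*, *Bbs8*+/+ replicate 1 lay far above the other *Bbs8*+/+ libraries at 167 CPM. Without it the log2 fold change was -0.43 and the call held. For *Gnat1*, *Bbs8*-/- replicate 1 lay above the other *Bbs8*-/- libraries at 3353 CPM. The share of counts on erythrocyte markers was lowest in *Bbs8*-/- replicate 4, at 0.208%.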

How the results depend on the processing

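The calls of all 10 recovery genes and their direction held under each of the 14 other settings of test, scaling, filter, replicate block and libraries. Scaling by library size alone gave 657 lower and 1005 higher genes, against 877 and 704 with TMM, and moved the median log2 fold change from 0.02 to 0.11. With a replicate block the 10 calls held and 827 genes were lower and 650 higher, but same-numbered libraries did not deviate together (correlations from -0.07 to 0.02), so the numbers were not taken as pairs. Among small lists, calcium and cyclase partners had 3 higher genes with library size scaling, 2 with DESeq2 and 0 to 1 with a library left out. The RGS7 family had 0 lower genes with library size scaling, no filter or the replicate block, and 0 to 1 with a library left out. Membrane cyclases had 1 lower with DESeq2, 1 higher with library size scaling and 0 to 1 of each with a library left out. Higher calls numbered 0 to 1 for the Slc24 family, 1 to 2 for RPE markers, 0 to 1 for bipolar and amacrine markers and 1 to 3 for Müller glia markers with a library left out, and 0 and 1 for the last pair of lists with the replicate block. Against photoreceptor structure genes, the ratio changes turned to -0.0347 for *Guca1a*, -0.11 for *Gucy2e*, -0.0347 for *Gucy2f*, -0.20 for *Grk1* and -0.15 for *Gnb5*. Against the summed CPM of the rod genes they passed for *Guca1a* (0.47), *Gucy2e* (0.39), *Rcvrn* (0.54), *Grk1* (0.31), *Rgs9* (0.99), *Gnb5* (0.36) and *Slc24a1* (0.66), and also for *Guca1b* (0.17) and *Rgs9bp* (0.21), whose direction turned. Without *Gngt1* in the reference, added after seeing the data, they passed for *Guca1a* (0.39), *Gucy2e* (0.31), *Rcvrn* (0.46), *Grk1* (0.23), *Rgs9* (0.91) and *Slc24a1* (0.57) and turned for *Guca1b* (0.0832) and *Rgs9bp* (0.12). With a library left out, the *Rgs9bp* ratio ranged from -0.0764 to 0.00425. The log2 change of the reference was -1.22, and it was -1.39 without *Gngt1*, -1.47 when summed and -0.96 for structure genes. *Gucy2f*, with 36 to 171 counts per library, is the gene whose precision depth limits most.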
